A study of Sus scrofa with 19 samples.

Results

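CD163, MRC1, LYVE1, CSF1R, TYROBP, C1QA, C1QB, C1QC, CD68 and AIF1 are 10 genes that are widely used to recognise macrophages, both those resident in the heart and those that enter it from the blood. They were picked by name, found by symbol in the gene table deposited by the authors and traced through their Ensembl identifiers to the read counts of every library. All 10 were found among the 25879 genes of the count files, and all 10 were among the 13552 genes that passed the filter on low counts. RNA was sequenced from left ventricular (LV) tissue of 19 female large white pigs, with 1 library per pig. DOX pigs (n = 5) received the anthracycline doxorubicin and MYO pigs (n = 5) its liposomal form Myocet, each in 3 cycles of 60 mg/m2, and both groups were examined at 3 months because the animals were unwell. RemoLV pigs (n = 3) had the left anterior descending coronary artery closed by a balloon for 90 min and then reopened, and their tissue came from the posterior wall, away from the infarct, at 6 months. Hyper pigs (n = 3) carried a stent of 9 mm in the descending thoracic aorta that became a stenosis as they grew, and Control pigs (n = 3) are sham-operated in the sample labels and untreated in the methods of the paper; both groups gave anterior wall tissue at 6 months, as DOX and MYO did at 3 months. The groups are not matched for time, the tissue was a piece of whole myocardium with all its cell types, the hearts were not perfused to clear them of blood, and the DOX and MYO data came from an earlier study, so that for these 10 libraries the series and the treatment cannot be told apart.

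Macrophages of the heart take up dead cells and debris, guard the tissue and regulate scar formation, and they live on signals through the receptor CSF1R, whose ligands are CSF1 and IL-34. Many of them settle before birth and renew themselves in place, others descend from circulating monocytes, and resident cells are known for scavenger receptors such as CD163, MRC1 and LYVE1. Complement C1q, which is built from the chains A, B and C, is made largely by macrophages, in contrast to most complement proteins, which come from the liver.

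The names of the libraries disagree between the deposited files. The table deposited by the authors has 19 library columns, each of which ranked the genes exactly as 1 count file did (Spearman correlation of 1), and 8 of these count files carry the label of another group than the column. The 3 libraries labelled RemoLV on the count files are named Control in the table, the 3 labelled Control are named RemoLV, and DOX replicate 5 and MYO replicate 1 are exchanged. The sample labels follow the count files and are used here, and no choice between the namings is made here. Each comparison of the 10 genes with Control is also given with the table names. Calls of the other gene lists are by file label unless the table names are stated. The libraries labelled RemoLV also stand apart as tissue. The ventricular myosin light chain MYL2 was at 18.6 to 115 CPM (counts scaled to 1000000 reads of the TMM-scaled library) in them against 13580 to 18080 CPM in the libraries labelled Control, and the atrial light chain MYL4 was at 6029 to 8130 against 0.594 to 3.1 CPM. The library totals were 9527710 to 20370209 counts. The 10 genes had between 27 (CD68 in Hyper replicate 2) and 1866 counts (CSF1R in DOX replicate 4) in a library, so that CD68 rests on few reads.

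Against Control, the scavenger receptor CD163 was called lower in DOX, MYO and RemoLV, and the growth factor receptor CSF1R was called higher in these groups. AIF1 was called higher in DOX and MYO, CD68, C1QA and C1QB in DOX and RemoLV, and C1QC in DOX. Since whole tissue was sequenced, more or fewer cells of a type cannot be told apart from more or less RNA per cell, for these and all genes given here. All of these changes were smaller than the absolute log2 fold change of 2 that the study required of a changed gene. A gene was called here at an adjusted p of at most 0.05 (quasi-likelihood test of edgeR, adjusted after Benjamini and Hochberg over all 13552 genes). In DOX vs. Control, 6 of the 10 genes were called higher and 1 lower, where 21% and 21.1% of all tested genes were called in these directions. In MYO vs. Control, 2 were called higher and 1 lower, against 20.7% and 21.7% of all genes. In RemoLV vs. Control, 4 were called higher and 1 lower, against 23.1% and 24% of all genes. CD163 changed by -1.05 ± 0.27 in DOX, -1.08 ± 0.27 in MYO and -1.36 ± 0.31 in RemoLV, on the log2 scale (± SE, as in all fold changes here), and was the member with the lowest fold change in all 3. The median log2 fold change of the 10 genes was 0.66 in DOX, 0.22 in MYO and 0.60 in RemoLV, beside 0.03, 0.02 and 0.02 over all tested genes. These 3 comparisons share the 3 Control libraries. The scaling bears on the directions: of all genes called, 49.8%, 48.8% and 49.1% were higher in DOX, MYO and RemoLV with TMM factors, and 88.9%, 88% and 85.6% when libraries were scaled by their totals alone, which moved the median of all genes to 0.45, 0.44 and 0.52 on the log2 scale. Without Control replicate 2, Control replicate 3 or DOX replicate 4, 2 of the 10 genes were called higher in DOX vs. Control, CSF1R and AIF1 each time. Without the libraries labelled RemoLV in the fit it was 4. Without Control replicate 3, MYO vs. Control held 1 higher call and RemoLV vs. Control 2.

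The table names give another picture of the same libraries. With them, 0 of the 10 genes were called in DOX vs. Control (2 at an unadjusted p under 0.05), where 29.6% of all genes were called in either direction. CD68 and MRC1 were called lower in MYO vs. Control, against 14.4% of all genes. In RemoLV vs. Control the directions turn round by construction, with 1 called higher and 4 lower, against 24% and 23.2% of all genes. By file label, 0 of the 10 genes passed both the adjusted p and the absolute log2 fold change of 2 in DOX, MYO, RemoLV or Hyper vs. Control, beside 2.75%, 2.47%, 6.35% and 0% of all genes.

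**Figure D1:**
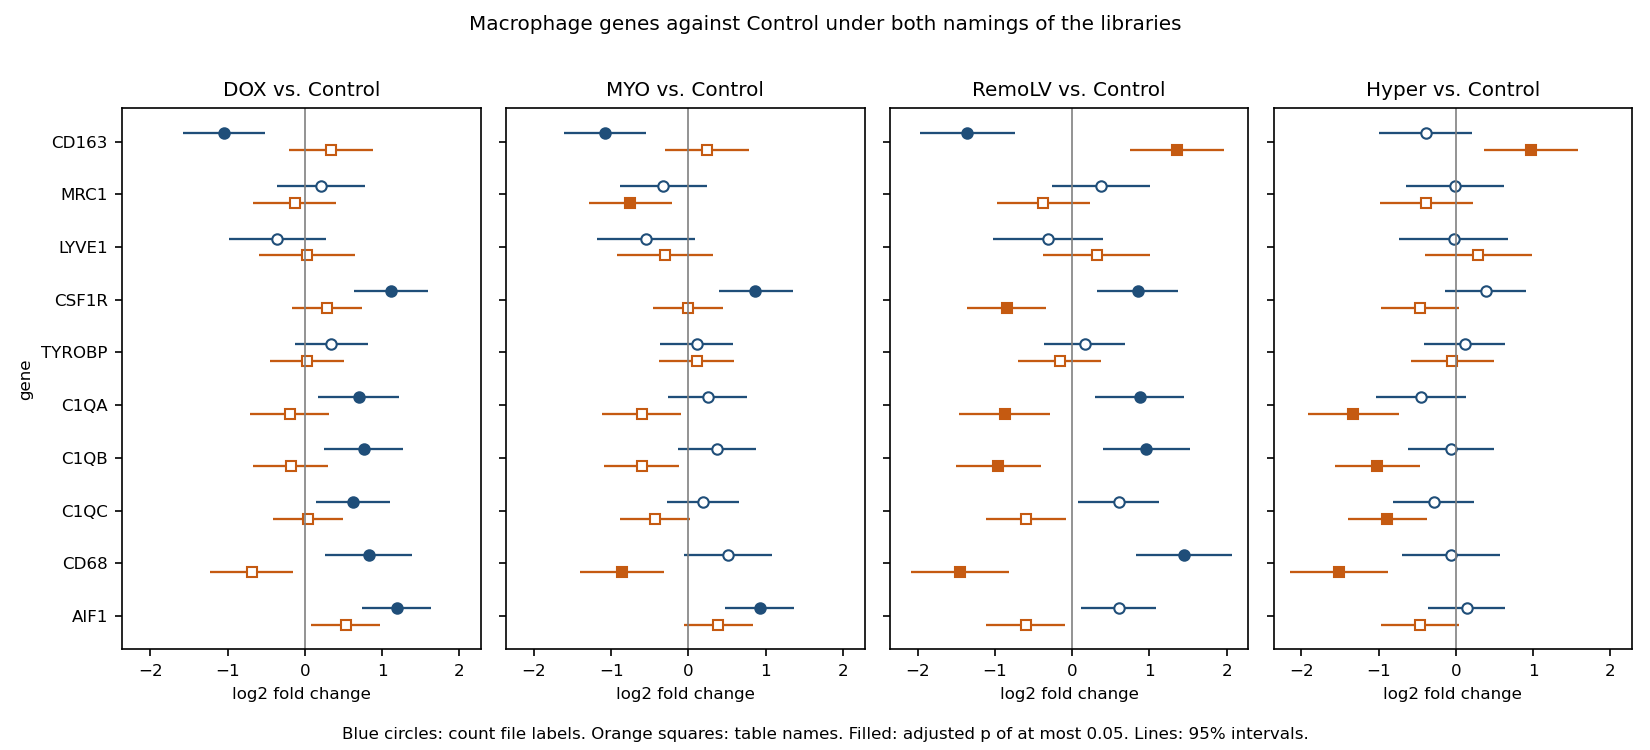
Log2 fold change (horizontal axis) of each of the 10 genes in the 4 comparisons with Control, with normal 95% intervals. Blue circles use the count file labels and orange squares the table names, and filled symbols have an adjusted p of at most 0.05. CD163 lies at -1.05, -1.08 and -1.36 in DOX, MYO and RemoLV by file label and at 0.34, 0.24 and 1.36 by table name.

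The comparison of pressure overload with Control depends on the naming. By file label, in Hyper vs. Control, 0 of the 10 genes were called, none had an unadjusted p under 0.05, and 0% of all tested genes were called (17.8% had an unadjusted p under 0.05). The DESeq2 Wald test called 266 genes, 0 of the 10 among them. The log2 fold changes ran from -0.45 (C1QA) to 0.39 (CSF1R), and their normal 95% intervals reached from -1.03 to 0.91. With the table names, where the libraries labelled RemoLV stand as Control, CD163 was called higher and CD68, C1QA, C1QB and C1QC lower in Hyper, against 18.7% and 17.2% of all genes.

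Free and liposomal doxorubicin were compared at the same dose, number of cycles and time. In DOX vs. MYO, 0 of the 10 genes and 0% of all tested genes were called (7.08% had an unadjusted p under 0.05, MRC1 and C1QC among them). The DESeq2 Wald test called 2 genes, 0 of the 10 among them. By file label, the fitted log2 fold change of each of the 10 genes was above 0, from 0.03 (CD163) to 0.54 (MRC1). Their median was 0.29, beside 0.0017 over all genes. The normal 95% interval of MRC1 reached 1.03 and that of CD163 ran from -0.44 to 0.51. By table name, 9 were above 0, and the fold changes ran from -0.0785 (TYROBP) to 0.625 (MRC1) with a median of 0.314, beside 0.00445 over all genes. DOX replicate 4 was the library with the highest CPM of all 19 for 8 of the 10 genes.

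Both anthracycline groups together were compared with Hyper because these 13 libraries hold the same animals under either naming. AIF1 (0.92 ± 0.21 on the log2 scale, adjusted p = 0.00295), C1QA (0.93 ± 0.25 on the log2 scale, adjusted p = 0.00903), C1QC, CD68 and CSF1R were called higher in DOX and MYO, and CD163 lower (-0.68 ± 0.24 on the log2 scale, adjusted p = 0.0375). These are 5 higher and 1 lower, against 15.8% and 16.9% of all genes in these directions, and with the table names C1QB was also called higher. AIF1 had an adjusted p of at most 0.0265 over the 27 alternatives other than the table names, whereas the calls of CD163, CD68 and CSF1R were lost in at least 10 of them. Without Hyper replicate 2, AIF1 was the only higher call, without Hyper replicate 1 AIF1 and C1QA were called, and without the libraries labelled RemoLV in the fit there were 3 higher and 0 lower. Time and the series of libraries differ between these groups and cannot be told apart from the treatment.

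RemoLV vs. Hyper, the infarct model against the pressure model at 6 months, gave 4 genes called higher and 1 lower, against 17% and 18.6% of all genes. CD68 was higher by 1.51 ± 0.32, C1QA by 1.33 ± 0.30, C1QB by 1.02 ± 0.29 and C1QC by 0.89 ± 0.27 on the log2 scale, and CD163 changed by -0.97 ± 0.31. The CD163 call was lost without RemoLV replicate 1, RemoLV replicate 2 or Hyper replicate 1. The tissue differs as well: the posterior wall was taken in RemoLV and the anterior wall in Hyper, and of the markers tested 4 of 4 atrial genes were called higher (median 4.6 on the log2 scale), 5 of 5 ventricular cardiomyocyte genes lower (-4.18) and 5 of 7 fibroblast genes higher (1.95). Their part in the result was not tested. With the table names, this comparison sets the libraries labelled Control against Hyper, and 0 of the 10 genes and 0% of all genes were called (0 of the 10 at an unadjusted p under 0.05).

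CSF1R, the receptor through which CSF1 and IL-34 keep macrophages alive, was at 34, 41.5 and 23.6 CPM in the 3 Control libraries and at 34.8, 41.1 and 53.7 CPM in Hyper. It was at 56.9, 60.2, 79, 114 and 47.9 CPM in DOX, 53.5, 72.5, 53.2, 60.2 and 62.3 in MYO and 59.9, 49.7 and 69.3 in RemoLV. Every DOX, MYO and RemoLV library lay above every Control library, and the Hyper libraries overlapped with both sides. The fold changes against Control were 1.12 ± 0.25 on the log2 scale, adjusted p = 0.00169 in DOX, 0.87 ± 0.24 on the log2 scale, adjusted p = 0.00858 in MYO and 0.85 ± 0.27 on the log2 scale, adjusted p = 0.0143 in RemoLV. With the table names, CSF1R was called neither in DOX (0.29, adjusted p = 0.37) nor in MYO (-0.01, adjusted p = 0.981).

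CD163, the scavenger receptor that clears haemoglobin bound to haptoglobin, was at 136, 86.8 and 109.9 CPM in Control and at 106, 59.1 and 88.8 CPM in Hyper. It was at 35.8, 46, 53.5, 78.3 and 54.9 CPM in DOX, 60.8, 84.9, 43.1, 32.3 and 40.7 in MYO and 42.1, 41.3 and 46.5 in RemoLV. The 3 Control libraries stood above all 13 libraries of the latter groups, with MYO replicate 2 closest to them, and the Hyper libraries overlapped with Control, DOX and MYO. The adjusted p was 0.00511 in DOX vs. Control, 0.00398 in MYO vs. Control and 0.00181 in RemoLV vs. Control. In DOX the call was lost when libraries were scaled by their totals alone (adjusted p = 0.0742). Per length, CD163 was among the highest of the 10 genes in Control, at a median level of 28.3 CPM per kb of exons beside 30.7 for C1QC and 26.8 for C1QB, whereas in RemoLV it stood at 10.8 CPM per kb beside 52.8 and 54.7. The haemoglobin chain HBB, a red blood cell transcript, was at 35.1 to 337 CPM in Control, 20.5 to 114 in Hyper, 8.4 to 108 in DOX, 12.4 to 189 in MYO and 9.27 to 39.2 in RemoLV. Its range in every other group overlapped with that in Control. Of the 4 red blood cell genes tested, 4 were called lower in DOX, 1 in MYO and 3 in RemoLV. Of all genes, 21.1%, 21.7% and 24% were called lower, so that 1 of 4 in MYO is near the background. Their summed level was 36.7 to 354.5 CPM in Control, 21.6 to 122 in Hyper, 8.57 to 113 in DOX, 13.1 to 199 in MYO and 10.7 to 42.2 in RemoLV. Their part in the CD163 result was not tested. Control replicate 2 had low HBB, 35.1 CPM, and 86.8 CPM of CD163.

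MRC1 and LYVE1, a mannose receptor and a hyaluronan receptor of resident macrophages, were not called in any of the 7 comparisons by file label. MRC1 ranged over 15.9 to 19.9 CPM in Control, 11.7 to 27 in Hyper, 13 to 31.7 in DOX, 11.7 to 20.4 in MYO and 16.6 to 31 in RemoLV, and the ranges of all 5 groups overlapped. LYVE1 ranged over 12.4 to 15.1 CPM in Control, 8.2 to 17.2 in Hyper, 7.67 to 18.5 in DOX, 6.84 to 12.4 in MYO and 5.81 to 16.3 in RemoLV, with overlap of all pairs of groups other than MYO and Control, where the highest MYO library lay just under the lowest Control library. Against Control, the adjusted p of MRC1 was 0.589, 0.381 and 0.354 in DOX, MYO and RemoLV, and that of LYVE1 was 0.391, 0.182 and 0.492. LYVE1 is also made by lymphatic endothelium, whose 6 other markers held 0 higher and 0 lower calls in DOX, 0 and 1 in MYO (PROX1, -1.25 ± 0.38) and 0 and 1 in RemoLV (PDPN, -1.57 ± 0.35), with a summed level of 62.7 to 70.4 CPM in Control and 44.9 to 93.4 CPM over the other 4 groups. Of all genes, 21.7% and 24% were called lower in MYO and RemoLV, so that 1 of 6 is near the background. Under the table names, the 6 markers held 1 higher and 0 lower calls in DOX, 1 and 3 in MYO and 1 and 0 in RemoLV. The shares of all genes were then 29.6% in either direction for DOX, 14.4% lower for MYO and 24% higher for RemoLV.

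The 3 chains of C1q lie side by side in the pig genome. In Sscrofa11.1, the RefSeq gene C1QA spans chr6:80586259-80589213, C1QC chr6:80592591-80597464 and C1QB chr6:80601680-80606076, all on the plus strand. C1QA was at 34, 25.5 and 22.1 CPM in Control and 20, 15.3 and 24.2 CPM in Hyper, and at 29.9, 32.5, 45.1, 78 and 34.7 in DOX, 32.2, 38.2, 24.6, 28.7 and 37.5 in MYO and 53.9, 53.7 and 41.7 in RemoLV. All 3 RemoLV libraries lay above all Control and Hyper libraries, while the DOX and MYO libraries overlapped with Control. C1QB was at 40.6, 31.2 and 30 CPM in Control, 26.3, 26 and 45 in Hyper, 42.4, 41.6, 63.4, 96.4 and 43.6 in DOX, 46.3, 49.3, 32.9, 40.2 and 50.3 in MYO and 63.8, 75.2 and 58.6 in RemoLV. Here every DOX library was above every Control library, if by as little as 41.6 against 40.6 CPM, and MYO overlapped with Control. C1QC was at 58.9, 39.9 and 37.9 CPM in Control, 36.1, 30 and 45.7 in Hyper, 54, 55.5, 80.6, 111 and 49.9 in DOX, 53.3, 60.1, 39.6, 42.5 and 63.9 in MYO and 68.5, 73.1 and 65.3 in RemoLV. Control replicate 1 was the highest of the Control libraries for all 3 chains and overlapped with DOX in C1QA and C1QC. The fold changes in DOX vs. Control were 0.70 ± 0.27 for C1QA, 0.76 ± 0.26 for C1QB and 0.63 ± 0.24 for C1QC on the log2 scale (adjusted p = 0.0429, 0.0254 and 0.0455). Over the 27 alternatives other than the table names, the call in DOX was lost in 13 for C1QC, 9 for C1QA and 5 for C1QB. None of the 3 was called without DOX replicate 4, with adjusted p of 0.13, 0.0701 and 0.134. In MYO vs. Control they had adjusted p of 0.473, 0.261 and 0.552. In RemoLV vs. Control, C1QA (0.87 ± 0.29 on the log2 scale, adjusted p = 0.0204) and C1QB (0.96 ± 0.28 on the log2 scale, adjusted p = 0.0104) were called, and C1QC was not (adjusted p = 0.0732).

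**Figure D2:**
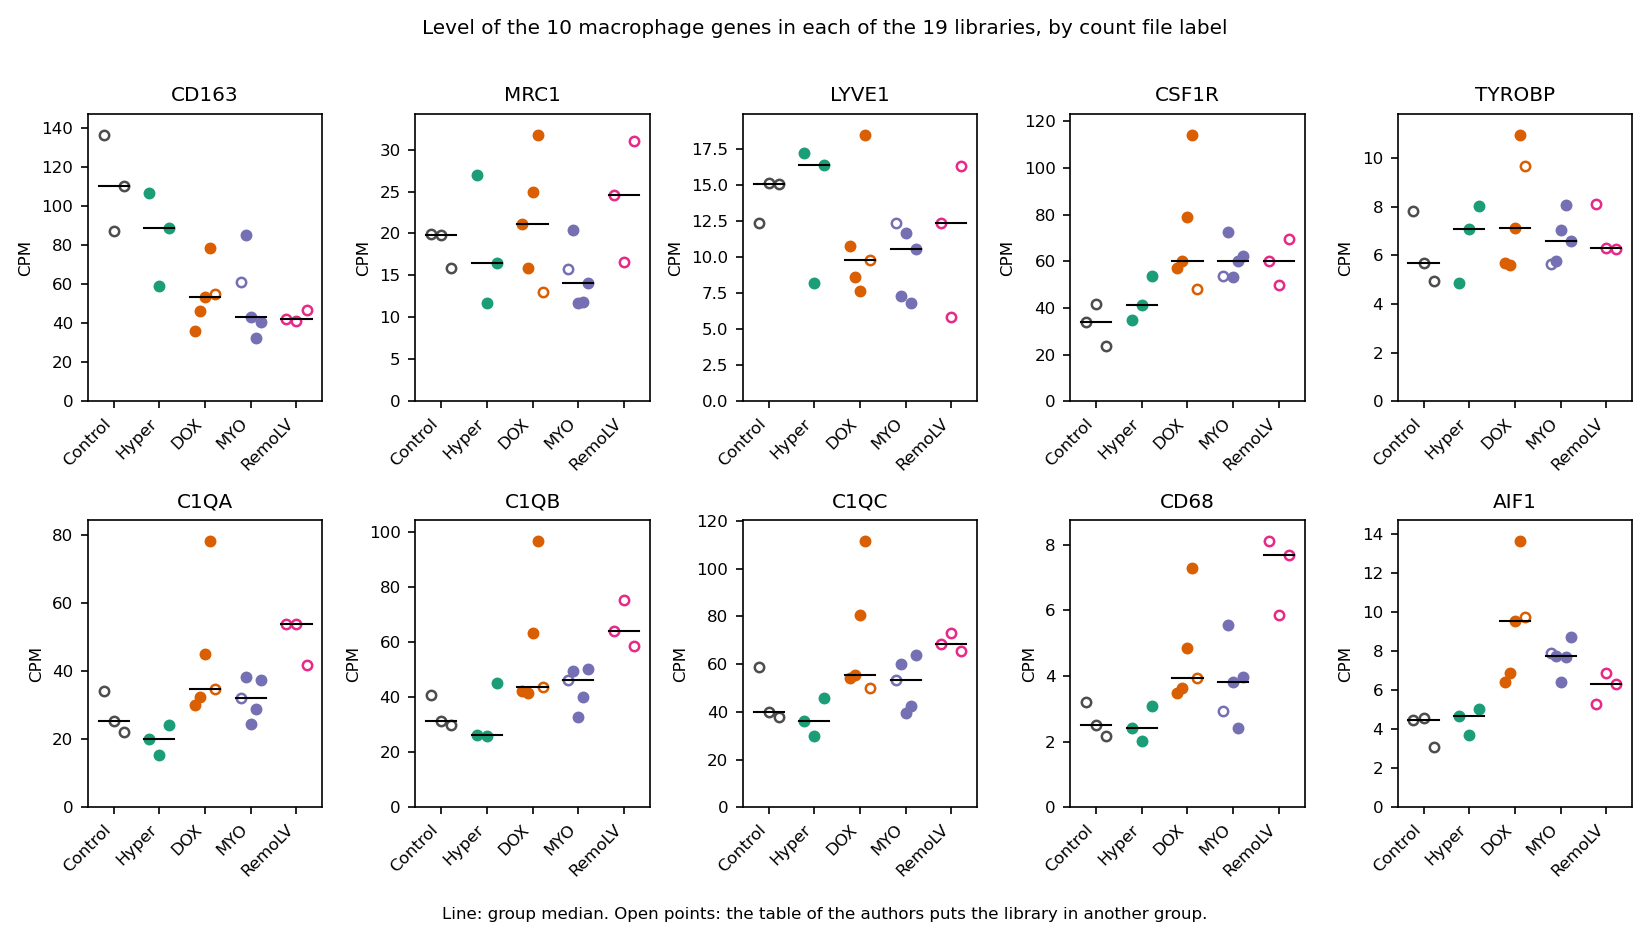
Level in CPM (vertical axis, from 0) of each of the 10 genes in the 19 libraries, by count file label, with the group median as a line. Open points are the 8 libraries that the authors' table places in another group. CD163 is highest in Control (86.8 to 136 CPM) and CD68 in RemoLV (5.87 to 8.09 CPM), and DOX replicate 4 is the top point of 8 of the 10 genes.

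The 3 chains stayed within a narrow range of proportions in most libraries. The ratio of C1QA to C1QB reads within a library, which no scaling of the libraries can change, was 0.538 to 0.845 over the 19 libraries (median 0.745), with 0.587 and 0.538 in Hyper replicates 2 and 3 and at least 0.694 in every other library. That of C1QC to C1QB was 0.972 to 1.45 (median 1.2). The sequences before the 3 genes are shown because the chains varied together, beside those before CD163 and CSF1R, which were called in opposite directions. Each is the 250 bases before the RefSeq start of the gene in Sscrofa11.1, 5' to 3' on the strand of the gene, and GAGGAA, a core recognised by the myeloid factor PU.1, or its reverse complement TTCCTC is in capitals:
C1QA, chr6:80586009-80586258, plus strand: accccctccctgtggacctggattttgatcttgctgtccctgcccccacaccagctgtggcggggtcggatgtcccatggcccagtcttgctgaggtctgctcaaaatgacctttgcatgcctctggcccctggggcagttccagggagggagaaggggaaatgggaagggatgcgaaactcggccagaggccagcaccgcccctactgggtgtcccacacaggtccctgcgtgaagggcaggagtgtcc
C1QC, chr6:80592341-80592590, plus strand: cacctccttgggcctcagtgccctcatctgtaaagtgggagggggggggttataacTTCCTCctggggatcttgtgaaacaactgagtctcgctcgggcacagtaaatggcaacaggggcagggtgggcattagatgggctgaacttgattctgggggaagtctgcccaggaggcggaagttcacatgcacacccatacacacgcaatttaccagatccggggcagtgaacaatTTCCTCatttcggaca
C1QB, chr6:80601430-80601679, plus strand: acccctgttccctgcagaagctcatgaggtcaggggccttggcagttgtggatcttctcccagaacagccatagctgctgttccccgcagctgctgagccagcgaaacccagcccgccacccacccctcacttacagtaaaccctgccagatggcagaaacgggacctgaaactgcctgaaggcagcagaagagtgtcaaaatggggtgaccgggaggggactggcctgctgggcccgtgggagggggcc
CD163, chr5:63299950-63300199, plus strand: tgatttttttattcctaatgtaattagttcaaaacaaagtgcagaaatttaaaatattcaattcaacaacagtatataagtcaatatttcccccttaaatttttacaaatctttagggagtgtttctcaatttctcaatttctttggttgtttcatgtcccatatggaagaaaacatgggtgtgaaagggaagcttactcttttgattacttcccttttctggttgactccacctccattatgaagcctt
CSF1R, chr2:151130312-151130561, minus strand: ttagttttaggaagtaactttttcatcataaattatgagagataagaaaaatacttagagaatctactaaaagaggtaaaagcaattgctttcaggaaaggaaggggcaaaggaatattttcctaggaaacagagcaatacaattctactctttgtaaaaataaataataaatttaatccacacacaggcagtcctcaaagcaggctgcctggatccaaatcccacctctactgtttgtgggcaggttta

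Of these, C1QC holds the letters at 2 places, both in the form TTCCTC, and the others hold none. Over the 10 genes, 5 held GAGGAA on either strand in this window (MRC1 at 3 places, C1QC at 2 and LYVE1, AIF1 and TYROBP at 1 each), beside 22% of 19569 windows of the same length before all RefSeq genes. The longer PU.1-type letters GGAAGTG and the letters TATAAA were in 0 of the 10 windows, beside 7.41% and 9.77% of all windows. A match of letters is a description of the sequence only, and an annotated start need not be the start used in the heart.

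**Figure D3:**
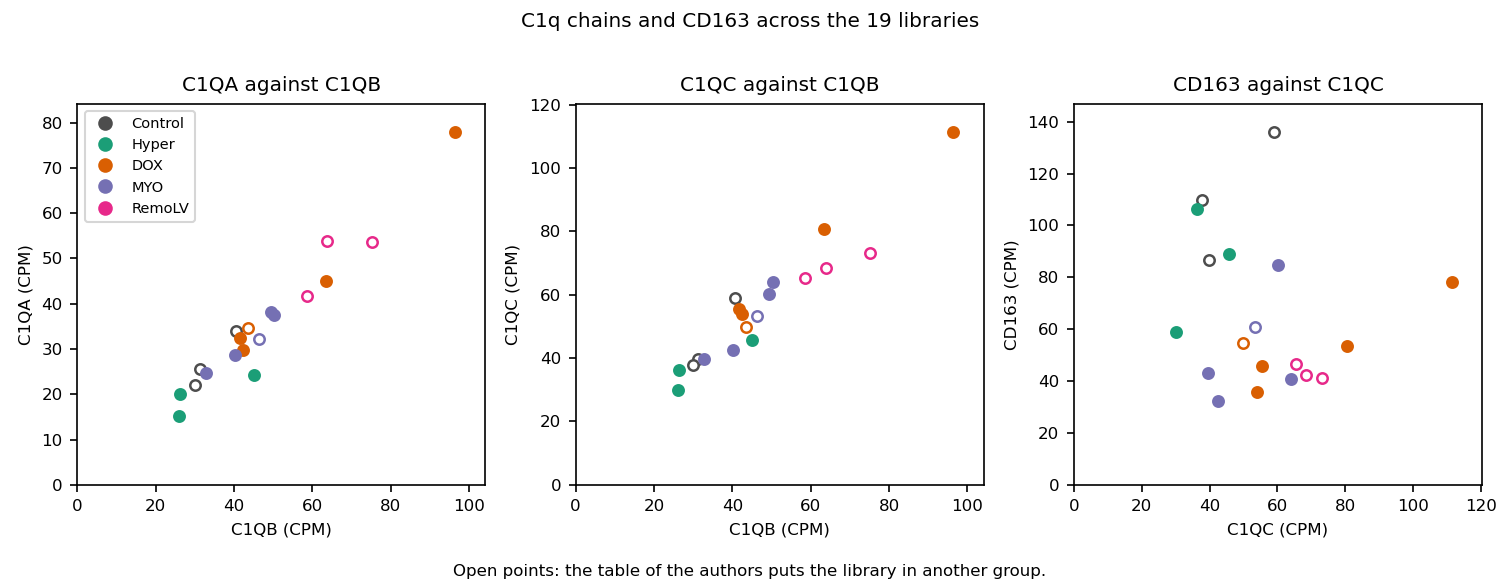
C1QA and C1QC against C1QB, and CD163 against C1QC, all in CPM, with 1 point per library coloured by count file label. The C1q chains rise together through all 5 groups, whereas the 6 Control and Hyper libraries have more CD163 for their C1QC (ratios of 1.94 to 2.94) than the other 13 (0.565 to 1.41).

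CD68, a protein of the lysosomal membrane found in most macrophages, had the lowest median level per length of the 10 genes in Control, Hyper and DOX. It was at 3.21, 2.49 and 2.19 CPM in Control, 2.4, 2.03 and 3.08 in Hyper and 8.09, 5.87 and 7.67 in RemoLV, so that the RemoLV libraries stood above both other groups without overlap. In DOX it was at 3.5, 3.65, 4.87, 7.27 and 3.95 CPM and in MYO at 2.93, 5.54, 3.81, 2.42 and 3.98. All DOX libraries lay above all Control libraries, and MYO overlapped with them. CD68 was the member with the largest fold change in RemoLV, 1.45 ± 0.32 on the log2 scale, adjusted p = 0.00108 against Control, and it was called in all 26 alternatives other than the table names, with which it was -1.45. In DOX it was 0.83 ± 0.29 on the log2 scale, adjusted p = 0.0286, a call lost in 5 of 27 alternatives, and in MYO 0.51 with an adjusted p of 0.162. CD68 was also the 1 gene of the 10 called between RemoLV and MYO (0.94 ± 0.27 on the log2 scale, adjusted p = 0.0138), where 14.6% of all genes were called higher.

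AIF1, the actin-bundling protein also called IBA1, was at 4.48, 4.57 and 3.1 CPM in Control and 4.67, 3.69 and 5.03 CPM in Hyper. It was at 6.43, 6.87, 9.53, 13.6 and 9.75 CPM in DOX, 7.92, 7.76, 6.42, 7.7 and 8.71 in MYO and 5.28, 6.88 and 6.33 in RemoLV. All 13 libraries of the latter groups lay above all 6 Control and Hyper libraries. The fold changes were 1.19 ± 0.23 on the log2 scale, adjusted p = 0.000594 in DOX, 0.92 ± 0.23 on the log2 scale, adjusted p = 0.00371 in MYO and 0.60 in RemoLV (adjusted p = 0.0554). AIF1 in DOX and MYO was called in all 27 alternatives other than the table names, with which the fold changes were 0.53 and 0.39 (adjusted p = 0.0902 and 0.224).

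TYROBP, the adaptor that passes on signals of TREM2 and other activating receptors, ranged over 4.94 to 7.84 CPM in Control, 4.88 to 8.05 in Hyper, 5.6 to 10.9 in DOX, 5.62 to 8.05 in MYO and 6.24 to 8.09 in RemoLV, with overlap of all groups. Its adjusted p against Control was 0.26, 0.754, 0.638 and 0.85 in DOX, MYO, RemoLV and Hyper. With MRC1 and LYVE1 it makes up the 3 genes that were called in none of the 7 comparisons by file label.

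The 5 groups of each gene were also put in order by the mean CPM of their libraries. CD163 ran from RemoLV over MYO, DOX and Hyper to Control, and CSF1R and AIF1 from Control over Hyper, RemoLV and MYO to DOX. CD68, C1QA and C1QB ran from Hyper over Control, MYO and DOX to RemoLV. Of the 40 pairs of neighbours in these orders, 0 were called and 38 overlapped in their ranges (the exceptions were C1QC between MYO and RemoLV and AIF1 between Hyper and RemoLV). Neighbours are close by construction, since the same means set the order. Many of the pairs were Control with Hyper or DOX with MYO, for which 0% of all genes were called. These counts therefore describe the orders and do not show that neighbouring groups are alike.

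The opposite course of CD163 can be read within each library. The ratio of CD163 to CSF1R reads was 3.998, 2.1 and 4.65 in the 3 Control libraries and 3.05, 1.44 and 1.65 in the 3 Hyper libraries. It was 0.628, 0.763, 0.677, 0.687 and 1.15 in DOX, 1.14, 1.17, 0.81, 0.537 and 0.653 in MYO and 0.704, 0.83 and 0.671 in RemoLV. The 6 libraries labelled Control and Hyper lay between 1.44 and 4.65 and the 13 others between 0.537 and 1.17, with no overlap. For CD163 to C1QC reads, the ranges were 1.94 to 2.94 and 0.565 to 1.41. These ratios were computed after the fold changes were known and are given without a test. The exchanges of names leave Hyper in the higher range, move the libraries now called Control to the lower one (0.671 to 0.83 for CD163 to CSF1R), and move those now called RemoLV to the higher one (2.1 to 4.65).

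**Figure D4:**
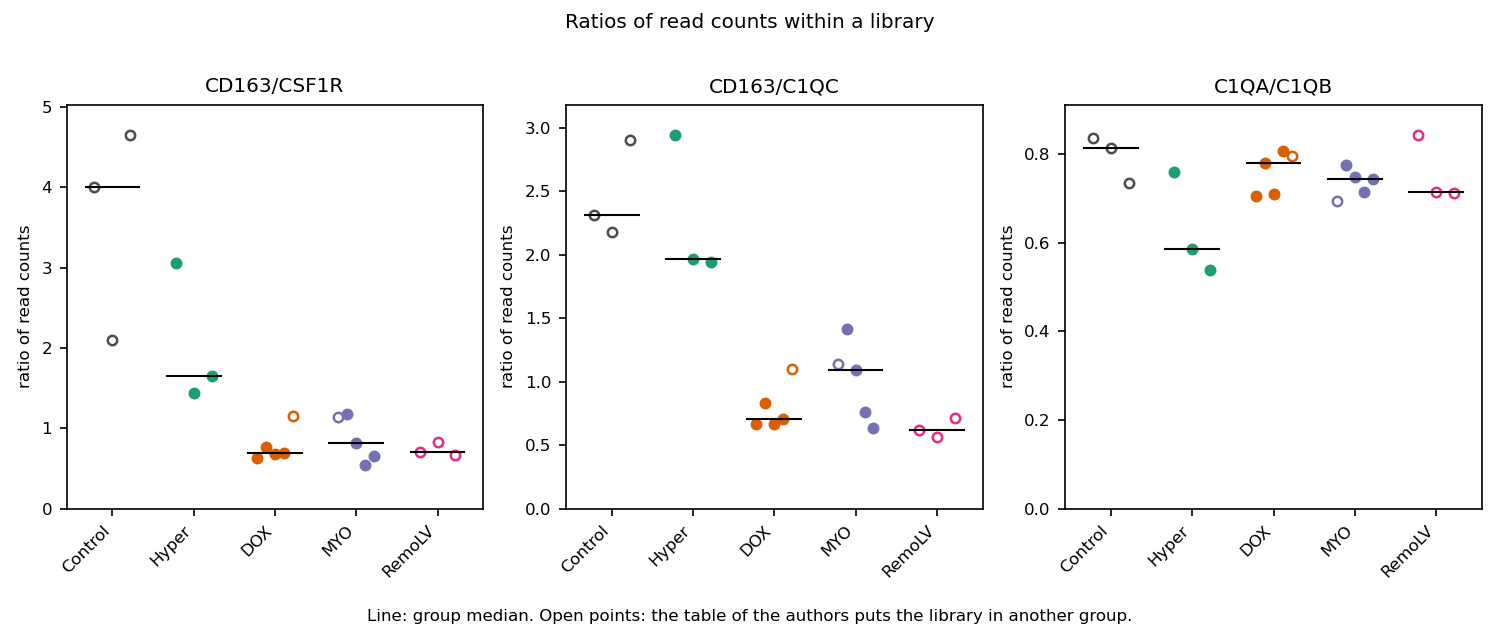
Ratio of read counts within each of the 19 libraries (vertical axis, from 0) for CD163 to CSF1R, CD163 to C1QC and C1QA to C1QB, by count file label, with the group median as a line. Control and Hyper lie above the other groups in the first pair of panels, and the C1QA to C1QB ratio lies between 0.538 and 0.845, lowest in Hyper replicates 3 and 2.

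Within the anthracycline groups, whose data came from the same earlier study, the 3 C1q chains had the closest relations among the 10 genes. Over the 10 DOX and MYO libraries, Pearson's r of log2 CPM was positive for all 45 pairs of genes, and 20 pairs had an adjusted permutation p of at most 0.05, 8 of them also by Spearman's rho (adjusted over the 45 pairs). C1QA and C1QB had r = 0.987 and rho = 0.927 (permutation test, adjusted p = 0.00045 and 0.0133), and r was 0.936 without the 2 libraries farthest from the median of C1QA. For each pair, the 2 libraries left out were those farthest from the median of the first-named gene. C1QB and C1QC had r = 0.974 and rho = 0.891 (permutation test, adjusted p = 0.00045 and 0.0133), and C1QA and C1QC r = 0.962 and rho = 0.903 (permutation test, adjusted p = 0.0006 and 0.0133), with 0.895 and 0.9 without the 2 farthest. CSF1R and C1QC had r = 0.89, which was 0.497 without the 2 farthest. Of the 9 pairs with LYVE1 none passed (permutation test, adjusted p of r from 0.231 to 0.434), and TYROBP passed with AIF1 alone. Without the 2 farthest libraries r was negative for 14 of the 45 pairs, down to -0.86 for CD68 and LYVE1 and -0.72 for MRC1 and TYROBP. The libraries left out can differ between pairs, and leaving them out narrows the range of the first gene. These signs therefore do not show on which libraries the positive r of the 14 pairs rests. Within DOX and MYO separately, 5 libraries each are too few for a correlation. After the group means were subtracted, the mean standardised deviation of the 10 genes was 2.19 in DOX replicate 4 and between -1 and 0.826 in the other 18 libraries.

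Over all 19 libraries, after subtraction of the group means, C1QA followed the mean of the other 9 genes most closely (Pearson's r = 0.919), before C1QC (0.886), C1QB (0.85) and CD68 (0.832), and LYVE1 (0.376) and TYROBP (0.389) least. Of the genes outside the 10, those with the pattern most like their mean were VSIG4 (0.817), LYZ (0.815), STXBP2 (0.796), CTSS (0.79), BANK1 (0.787), VAV1 (0.785), NCKAP1L (0.771), CANT1 (0.763), MGAT1 (0.761) and PIGS (0.761). VSIG4 is a complement receptor of tissue macrophages, LYZ is lysozyme and CTSS the protease cathepsin S. The least alike were ANKRD27 (-0.863), RPS24 (-0.844), COPS6 (-0.819), NCOA3 (-0.803) and RPS3A (-0.77). These values are descriptions over 19 libraries that share depth and scaling. DOX replicate 4 weighs heavily in them, with a mean deviation of the 10 genes of 2.19 beside -1 to 0.826 in the other libraries. The ranking without this library was not tested.

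Among the ligands of CSF1R and the transcription factors of myeloid cells, IL34, SPI1 and IRF8 were called higher in DOX and MYO. Of 6 tested genes of this list, 4 were called higher for DOX (21% of all genes), 3 for MYO (20.7%) and 1 for RemoLV (23.1%), with 0 called lower and medians of 0.70, 0.50 and 0.09 on the log2 scale beside 0.03, 0.02 and 0.02 over all genes. IL34 was at 12.2, 16 and 17.9 CPM in Control and, above all of these, at 20.7, 45.9, 42.4, 40.2 and 43.5 CPM in DOX and 36.9, 42.3, 23.1, 37.2 and 28.9 in MYO, and it changed by 1.32 ± 0.26 and 1.13 ± 0.25 (adjusted p = 0.000599 and 0.00186). In RemoLV it was at 8.16, 11.05 and 10.7 CPM, below every Control library, and was called lower against Hyper (-0.89 ± 0.28, adjusted p = 0.02). SPI1, which encodes PU.1, changed by 0.58 ± 0.15 in DOX and 0.44 ± 0.15 in MYO (adjusted p = 0.00515 and 0.024), and IRF8, another myeloid factor, by 1.38 ± 0.22, 1.19 ± 0.22 and 1.27 ± 0.24 in DOX, MYO and RemoLV (adjusted p = 0.000113, 0.000392 and 0.000305). CSF1 was called higher in DOX vs. Control (0.81 ± 0.25, adjusted p = 0.0148). Under the table names, this list held 2 higher and 0 lower calls in DOX and in MYO, and 0 and 1 in RemoLV. The shares of all genes were then 29.6% in either direction for DOX, 14.4% lower for MYO, and 24% higher and 23.2% lower for RemoLV. The 1 lower call of 6 in RemoLV is thus not above the background.

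Among 8 tested genes associated with resident macrophages, 5 were called higher and 2 lower in DOX, 3 and 2 in MYO and 5 and 2 in RemoLV, and 0 in Hyper. Of all genes, 21% and 21.1% were called in these directions for DOX, 20.7% and 21.7% for MYO and 23.1% and 24% for RemoLV, so that 2 lower calls of 8 are near the background. The medians of the list were 0.89, 0.91 and 1.23 on the log2 scale. SIGLEC1, a sialic acid receptor, was at 0.597, 1.96 and 0.635 CPM in Control and 0.756, 1.05 and 0.738 in Hyper, and at 3.56, 4.58, 4.8, 4.77 and 2.77 in DOX, 2.06, 3.05, 1.9, 2.86 and 3.21 in MYO and 4.71, 4.79 and 6.6 in RemoLV. It changed by 1.91 ± 0.35, 1.26 ± 0.35 and 2.29 ± 0.38 (adjusted p = 0.000423, 0.00828 and 0.000103), with Control replicate 2 just above the lowest MYO library. The folate receptor FOLR2 changed by 0.94 ± 0.27, 0.87 ± 0.27 and 1.42 ± 0.30 (adjusted p = 0.0107, 0.0158 and 0.000816) and the scavenger receptor STAB1 by 0.85 ± 0.25, 0.95 ± 0.25 and 1.04 ± 0.28 (adjusted p = 0.0122, 0.00592 and 0.00474). The genes called lower were F13A1, the A chain of coagulation factor XIII, and MS4A7. F13A1 was at 37.4, 10 and 28.4 CPM in Control and at 7.23 to 17.1 in DOX, 5.36 to 11.3 in MYO and 8.23 to 17.2 in RemoLV, and MS4A7 at 17.2, 4.45 and 17.5 CPM in Control and at 2.04 to 6.78, 1.47 to 3.95 and 1.48 to 5.44 in the same groups. For both genes Control replicate 2 lay within the ranges of DOX and RemoLV, far under the other Control libraries. Under the table names, the resident list held 0 calls in DOX, 0 higher and 1 lower in MYO, and 2 and 4 in RemoLV. Of all genes, 29.6% were then called in either direction for DOX, 14.4% lower for MYO, and 24% and 23.2% for RemoLV.

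**Figure D5:**
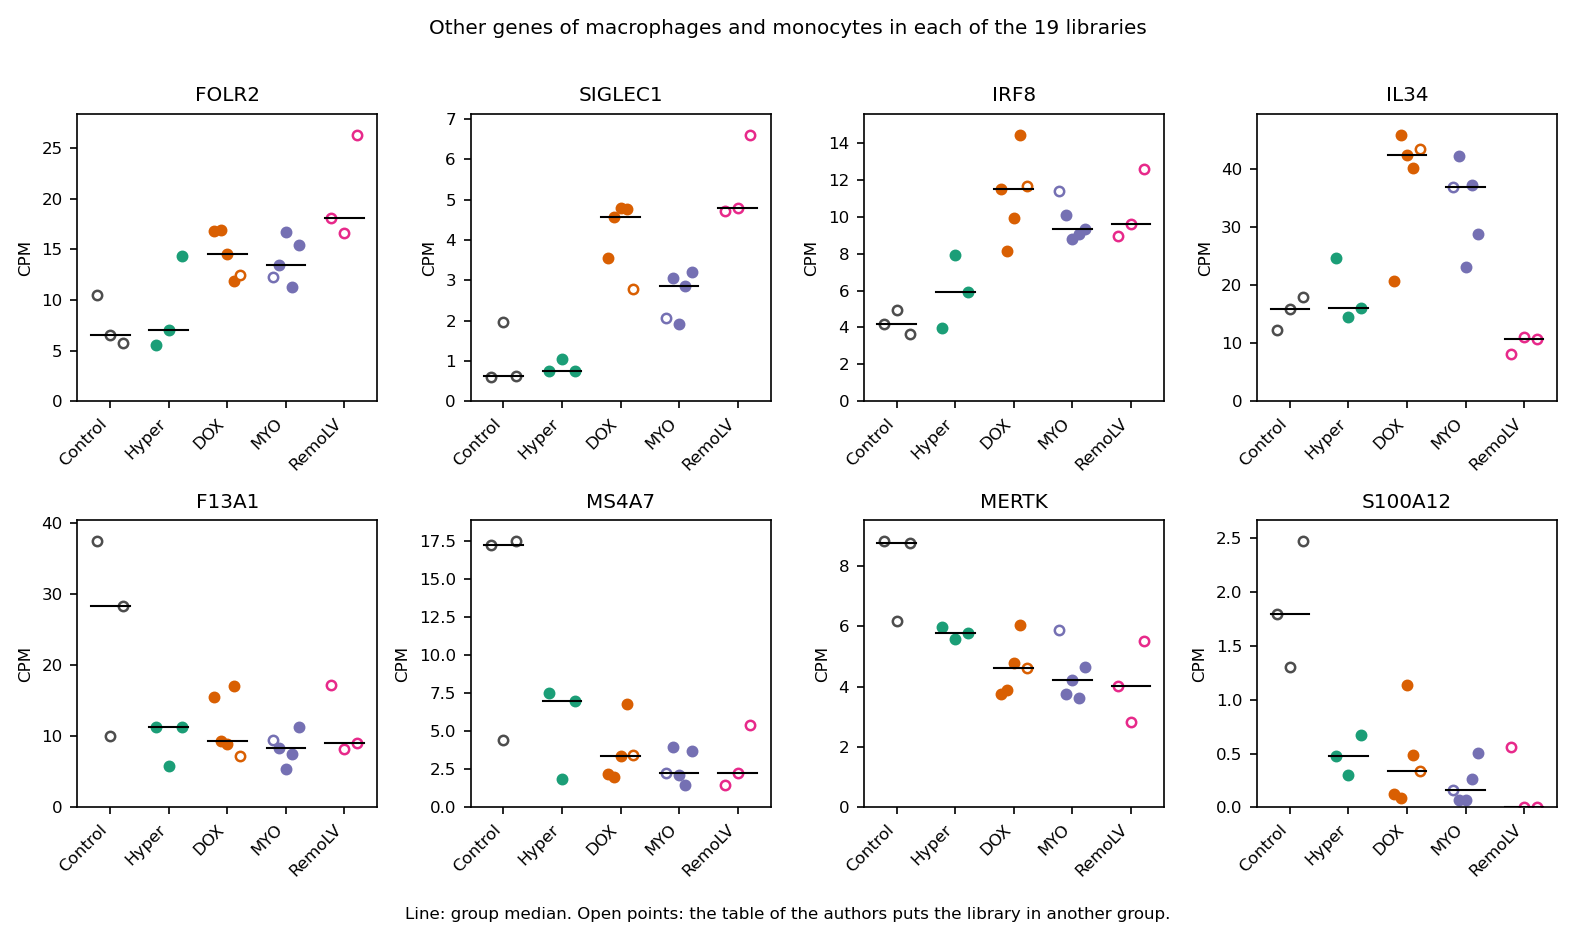
Level in CPM (vertical axis, from 0) of 8 further genes of macrophages and monocytes in the 19 libraries, by count file label, with the group median as a line and open points for libraries that the authors' table places in another group. FOLR2, SIGLEC1 and IRF8 are higher in DOX, MYO and RemoLV than in Control, and F13A1, MS4A7 and MERTK lower, by file label.

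By file label, genes of monocytes and freshly recruited macrophages were mostly not called higher. Of 10 tested, 0 were called higher and 1 lower in DOX, 0 and 4 in MYO, and 1 and 4 in RemoLV, against 21% and 21.1%, 20.7% and 21.7%, and 23.1% and 24% of all genes. The medians were 0.00, -0.40 and -0.66 on the log2 scale, beside 0.03, 0.02 and 0.02 over all genes. The neutrophil and monocyte protein S100A12 was at 1.79, 1.31 and 2.47 CPM in Control and was called lower in all 3 (-2.04 ± 0.69, -3.12 ± 0.77 and -3.24 ± 0.91 against Control, adjusted p = 0.0244, 0.00348 and 0.0072), at a level of few reads. CCR2, the chemokine receptor of inflammatory monocytes, which was added for its role after its values were seen, was at 3.03 to 3.66 CPM in Control, 2.03 to 3.29 in Hyper, 2.69 to 5.62 in DOX, 2.12 to 4.2 in MYO and 1.69 to 4.28 in RemoLV. CD14 was called lower in RemoLV (-0.99 ± 0.30, adjusted p = 0.0113), and the proteoglycan VCAN, which fibroblasts also make, was the gene called higher there (0.77 ± 0.22, adjusted p = 0.00804). Among the chemokines, 2 of 5 were called higher in DOX and in RemoLV and 1 lower in MYO. CCL8 was called higher in DOX and RemoLV (1.41 ± 0.52 and 2.94 ± 0.52, adjusted p = 0.0371 and 0.000207) and CCL2 lower in MYO (-2.44 ± 0.91, adjusted p = 0.0377). Under the table names, the monocyte list held 0 higher and 1 lower calls in DOX and in MYO. The shares of all genes were then 29.6% in either direction for DOX and 14.4% lower for MYO. In RemoLV the list then held 4 higher and 1 lower, against 24% and 23.2% of all genes.

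Of 12 tested phagocyte receptors and lysosomal genes, 2 were called higher and 1 lower in DOX, 1 and 1 in MYO and 4 and 2 in RemoLV. In DOX and MYO these counts lie under the shares of all genes (21% and 21.1%, 20.7% and 21.7%), in RemoLV the higher calls lie above and the lower calls under them (23.1% and 24%), and the medians were 0.19, -0.04 and 0.14 on the log2 scale. MERTK, the receptor with which macrophages take up dead cells, was at 8.81, 6.18 and 8.74 CPM in Control and changed by -0.77 ± 0.22, -0.84 ± 0.22 and -0.95 ± 0.25 on the log2 scale in DOX, MYO and RemoLV (adjusted p = 0.0092, 0.00537 and 0.00468). In RemoLV its relative AXL was called higher (1.24 ± 0.15, adjusted p = 7.32e-06), as were LGALS3 (1.87 ± 0.34, adjusted p = 0.000284) and SPP1, which encodes osteopontin (2.93 ± 0.65, adjusted p = 0.00123), while the lysosomal protease CTSD was lower (-1.03 ± 0.17, adjusted p = 9.63e-05). Of 11 tested genes of Fc receptor and TYROBP signalling, 2 were called higher and 0 lower in DOX and in MYO, the inhibitory receptor SIRPA (0.82 ± 0.10 and 0.59 ± 0.10, adjusted p = 7.88e-06 and 0.000154) and FCGR1A (1.98 ± 0.39 and 1.14 ± 0.39, adjusted p = 0.000702 and 0.0245). In RemoLV 2 were called higher and 1 lower, the kinase LYN (-0.57 ± 0.19, adjusted p = 0.0186). SERPING1, the inhibitor of the C1 complex, was called higher in RemoLV (1.26 ± 0.16, adjusted p = 8.84e-06) and was the 1 of 3 tested genes of the list of anaphylatoxin receptors and C1q partners to be called against Control. Of 7 tested genes of antigen presentation, SLA-DMA was called higher in all 3 groups and CD80 lower in MYO and RemoLV, beside CD86, lower in RemoLV. Under the table names, the phagocyte and lysosomal list held 2 higher and 4 lower calls in DOX, 1 and 4 in MYO and 2 and 4 in RemoLV. The shares of all genes were then 29.6% in either direction for DOX, 14.4% lower for MYO, and 24% higher and 23.2% lower for RemoLV.

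The markers of other cells of the blood and the tissue are given beside the same shares of all genes (21% higher and 21.1% lower for DOX, 20.7% and 21.7% for MYO, 23.1% and 24% for RemoLV). Many of the short lists lie near them. The 9 tested markers shared by all leukocytes held 7 higher calls in DOX, 2 in MYO, 1 in RemoLV and 0 lower, and their summed level was 122 to 147 CPM in Control, 114 to 149 in Hyper, 153 to 316 in DOX, 138 to 210 in MYO and 129 to 180 in RemoLV. The integrin chain ITGB2 was called in all 3 (1.57 ± 0.25, 1.22 ± 0.25 and 1.01 ± 0.27, adjusted p = 0.000136, 0.00095 and 0.00519) and PTPRC, or CD45, in DOX (1.01 ± 0.33, adjusted p = 0.0191). Of the lymphocyte lists, 1 of 5 T cell genes, 1 of 2 B cell genes and 2 of 4 NK cell genes were called higher in DOX, 0, 1 and 0 in MYO and 0, 1 and 1 in RemoLV. Neutrophil markers were low, with a summed level of 1.84 to 5.37 CPM in Control, 1.1 to 3.02 in Hyper, 2.69 to 7.27 in DOX, 1.21 to 5.47 in MYO and 1.41 to 5 in RemoLV. MPO and ELANE were at 0 counts in every Control, Hyper and DOX library, and 0 of the 2 tested markers were called in DOX, MYO or RemoLV. Fibroblast genes held 3 higher and 0 lower calls of 7 in DOX, 3 and 1 in MYO and 5 and 0 in RemoLV, the collagens COL1A1, COL1A2 and COL3A1 among the higher in all 3 and PDGFRA lower in MYO (-1.19 ± 0.34), with a summed level of 2076 to 3479 CPM in Control, 1563 to 3923 in Hyper, 4798 to 7131 in DOX, 4600 to 6692 in MYO and 10720 to 12380 in RemoLV. The atrial genes summed to 63.4 to 118 CPM in Control, 174.9 to 1233 in Hyper, 1085 to 2391 in DOX, 741.8 to 1218 in MYO and 9366 to 12650 in RemoLV. The remaining lists held, in DOX, MYO and RemoLV in turn, 1, 0 and 0 higher and 2, 1 and 2 lower calls of 5 (blood endothelium), 1, 1 and 1 higher and 1, 1 and 1 lower of 6 (smooth muscle and pericytes), 0, 1 and 0 higher and 0, 1 and 1 lower of 3 (mast cells), 1, 1 and 0 higher and 0, 0 and 1 lower of 2 (mesothelium), 0, 0 and 2 higher and 0 lower of 4 (adipocytes), 1, 1 and 0 higher and 0, 0 and 5 lower of 5 (ventricular cardiomyocytes), and 1, 2 and 1 higher and 4, 4 and 5 lower of 6 (cardiomyocytes of all chambers). Under the table names, the 9 leukocyte markers held 1 higher and 0 lower calls in DOX and in MYO, and 0 and 1 in RemoLV. The 7 fibroblast genes then held 0 higher calls in DOX, MYO and RemoLV, and 4, 5 and 5 lower calls in turn. Of all genes, 29.6% were then called in either direction for DOX, 14.4% lower for MYO, and 24% higher and 23.2% lower for RemoLV. The part of these cell types in the results for the 10 genes was not tested. By file label, 0 genes of any list were called in DOX vs. MYO and in Hyper vs. Control. Under the table names, Hyper vs. Control held 5 of 5 ventricular cardiomyocyte genes called higher. It also held 4 of 4 atrial, 5 of 7 fibroblast and 3 of 8 resident macrophage genes called lower. Of all genes, 18.7% were called higher and 17.2% lower there.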

How the data were processed

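Bulk RNA of pig left ventricular tissue was sequenced after poly(A) selection with a strand-specific kit, and the authors aligned the reads with STAR (2.7.8a) to Sscrofa11.1 and assigned them to Ensembl genes with HTSeq (0.11.1, union mode, reverse stranded). The deposited raw counts of the 19 libraries were used for all results. The authors' table of 13363 genes holds log2-like rlog values per library, which served here to compare library names, and log2 fold changes and adjusted p-values of the authors' own DESeq2 comparisons, which were not used. The 10 genes and all 25 gene lists were chosen with earlier results of these data known.

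Libraries were scaled by TMM factors, genes were filtered with filterByExpr (13552 of 25879 kept), and 1 quasi-likelihood model of the 5 groups was fitted in edgeR (4.0.16, limma 3.58.1, R 4.3.3) with Benjamini-Hochberg adjustment over all genes kept, tested on simulated counts. CPM are counts scaled to 1000000 reads of the TMM-scaled library. Intervals of log2 fold changes are normal 95% intervals. P-values rest on the spread between pigs within groups, estimated over all 19 libraries in 1 model, and the groups are small. Correlations are of log2 CPM (prior count 2), with 100000 two-sided permutations. DESeq2 (1.42.0) was an alternative, beside other scalings and filters, fits of only the groups compared, a replicate block, the table names and each library left out. Python 3.11.15, numpy 2.4.6, pandas 2.3.3, scipy 1.17.1 and matplotlib 3.10.9 were used for tables and plots. Upstream sequences were read from RefSeq's Sscrofa11.1 genome. No 2 libraries agreed within sampling noise. Genes of the lists were named by a rule, up to 4 tested genes per list and comparison with the lowest adjusted p and genes called against the direction of their list, with CCR2 added for its role.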

Additional observations from a re-analysis of the deposited data

Results flagged for a closer look

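The following differences were called between 2 disease models rather than between a model and Control, which is what brought them here, with edgeR's test across all genes. Between RemoLV and Hyper, the log2 fold change was -0.97 for CD163 (adjusted p = 0.0214), 1.51 for CD68 (adjusted p = 0.00118), 1.33 for C1QA (adjusted p = 0.00203), 1.02 for C1QB (adjusted p = 0.0095) and 0.89 for C1QC (adjusted p = 0.0154). Between DOX and MYO together and Hyper, it was -0.68 for CD163 (adjusted p = 0.0375), 0.73 for CD68 (adjusted p = 0.0427), 0.61 for CSF1R (adjusted p = 0.043), 0.93 for C1QA (adjusted p = 0.00903), 0.69 for C1QC (adjusted p = 0.0245) and 0.92 for AIF1 (adjusted p = 0.00295). Between RemoLV and MYO it was 0.94 for CD68 (adjusted p = 0.0138). Dixon's test, applied to the DOX and MYO libraries of each of the 10 genes (20 groups of 5), marked 0 libraries as outliers.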

How the results depend on the processing

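The table names changed most. With them the number of the 10 genes called higher and lower was 0 and 0 in DOX vs. Control (6 and 1 by file label), 0 and 2 in MYO (2 and 1), 1 and 4 in RemoLV (4 and 1), 1 and 4 in Hyper (0 and 0) and 0 and 0 in RemoLV vs. Hyper (4 and 1). The log2 fold change turned in DOX for CD163 (0.34), CD68 (-0.69), C1QA (-0.19) and C1QB (-0.18), in MYO for CD163 (0.24), CD68 (-0.86) and CSF1R (-0.0093), in RemoLV for CD163 (1.36), CD68 (-1.45), CSF1R (-0.85), C1QA (-0.87) and C1QB (-0.96), in Hyper for CD163 (0.97) and in RemoLV vs. Hyper for CD163 (0.39). The groups are made of other libraries under these names. Library totals without TMM factors gave 0 lower calls in DOX, 4 higher in MYO, 7 higher in RemoLV, 0 lower in RemoLV vs. Hyper and 0 lower in DOX and MYO vs. Hyper. With this scaling, 40.6% and 45.6% of all genes were called higher in MYO and RemoLV, so that 4 of 10 in MYO is near the background. Only 705, 962 and 760 of 13552 genes were then called lower in DOX, RemoLV vs. Hyper and DOX and MYO vs. Hyper. Of the fold changes followed through these alternatives, which were not all those of the 10 genes, scaling by totals turned MRC1 in MYO (0.073) and CD68 (0.11) and C1QB (0.12) in Hyper. Fits of only the groups compared gave 2 higher calls in DOX and 0 lower in DOX and MYO vs. Hyper, and without the 3 libraries labelled RemoLV there were 3 higher and 0 lower calls in DOX and MYO vs. Hyper. The cause was not tested beyond these constructions.

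With the replicate block, 2 genes were called higher in DOX vs. Control, and 2 higher and 0 lower in DOX and MYO vs. Hyper. The numbers do not pair the pigs: over 32 pairs of libraries with the same number in different groups, the median correlation of deviations from the group means was 0.0069, and 4 pairs were over 0.1. Leaving out each library in turn gave 2 to 6 higher calls in DOX, 1 to 2 in MYO, 2 to 6 in RemoLV, 3 to 4 in RemoLV vs. Hyper and 1 to 6 in DOX and MYO vs. Hyper, and 0 to 1 lower calls in the last pair of comparisons. In Hyper vs. Control it moved C1QB between -0.375 and 0.082 and CD68 between -0.241 and 0.099 on the log2 scale, neither called. The CD163 call in RemoLV vs. Hyper was lost without RemoLV replicate 1, RemoLV replicate 2 or Hyper replicate 1. That in DOX and MYO vs. Hyper was lost without DOX replicate 2, MYO replicate 3, 4 or 5, or Hyper replicate 1 or 3. Groups of 3 pigs and, for CD68, few reads limit what can be called.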
